A study of Mus musculus with 26 samples.

Results

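Expression of 10 genes of glucose uptake and glycolysis was examined in mouse muscle: Slc2a4, Hk2, Pfkm, Pfkfb1, Pfkfb3, Aldoa, Pgam2, Eno3, Ldha and Ldhb. They were taken by gene symbol, through the platform annotation of the arrays, and 18 probe sets named exactly 1 of them. These covered 9 of the 10 genes, and all 9 were among the 14854 genes tested. Pfkfb1, which encodes the liver and muscle form of the bifunctional enzyme that makes and breaks down fructose-2,6-bisphosphate, had no probe set naming it and was not analysed here.

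Each of 26 mice gave 1 array, hybridised with RNA of its TA/EDL, that is of the tibialis anterior and the extensor digitorum longus, both fast-twitch muscles of the shin. The groups were calorie-restricted (CR) mice labelled MKO (7 mice), CR FLOX mice (6), control-diet mice labelled MKO (7) and control-diet FLOX mice (6). MKO denotes a knockout of PGC-1a, the product of Ppargc1a, in skeletal muscle, and FLOX mice are their floxed littermates. All groups were housed singly on a mixed C57/BL6 and 129 background and were fed AIN-93M diet for a baseline of at least 10 days. Control-diet mice then received 90% of their free intake, so they too were mildly restricted, and CR mice received 80% in the first week and 60% of it, as a diet formulated for 40% restriction, for about 11 weeks more. The sources used here do not give the promoter that drives Cre or the sex and age of the mice. The tissue mixes 2 muscles and all their cells, so fewer cells of a type and less RNA per cell cannot be told apart.

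Muscle takes up glucose through GLUT4, the transporter encoded by Slc2a4, traps it with hexokinase II (Hk2) and commits it to glycolysis at phosphofructokinase (Pfkm). Fructose-2,6-bisphosphate, made by the Pfkfb enzymes, activates phosphofructokinase. Aldolase A (Aldoa), phosphoglycerate mutase (Pgam2) and beta-enolase (Eno3) carry the flow towards pyruvate, and lactate dehydrogenase, a tetramer of A (Ldha) and B (Ldhb) subunits, interconverts pyruvate and lactate. Fast glycolytic fibres are rich in the A subunit and oxidative tissue in the B subunit, and in mouse muscle PGC-1a is known to raise Ldhb through the receptor ERRa.

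Ldhb was the member called between genotypes on both diets. It was 1.95-fold lower in CR mice labelled MKO than in CR FLOX mice (log2 difference -0.96 ± 0.10 SE, adjusted p = 4.60e-08) and 1.89-fold lower in control-diet mice labelled MKO than in control-diet FLOX mice (-0.92 ± 0.10 SE, adjusted p = 1.89e-07). Pfkm was lower on CR than on the control diet in both genotypes, by 1.07-fold in mice labelled MKO and 1.11-fold in FLOX mice. Slc2a4 was 1.11-fold higher on CR in mice labelled MKO. Pfkfb3 was 2.00-fold higher in mice labelled MKO on CR (adjusted p = 0.0498), a p close to the threshold. Hk2, Aldoa, Pgam2, Eno3 and Ldha passed in none of the comparisons. P-values are from limma, adjusted over the 14854 genes, and changed means an adjusted p under 0.05. The plot of differences for the 9 members shows both genotype and diet effects.

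**Figure D1:**
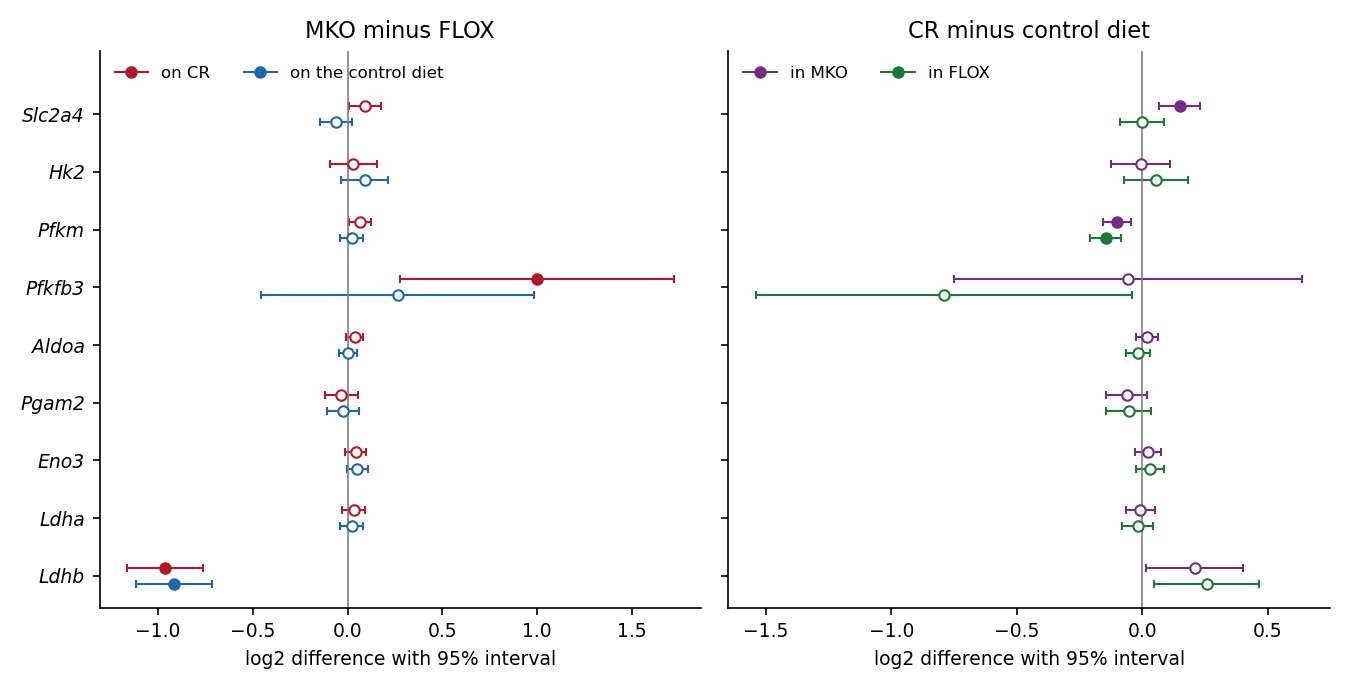
Log2 difference of each measured member with its 95% interval (left, MKO minus FLOX on CR and on the control diet; right, CR minus control diet in MKO and in FLOX). Filled points have an adjusted p under 0.05, and Ldhb on the left lies near -0.96 and -0.92 on the 2 diets.

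The members' counts stood against a wide background. Between the genotypes on CR, 1 member (Pfkfb3) was higher and 1 (Ldhb) lower of 9, while 17.3% of all genes were called, 8.23% higher and 9.05% lower. On the control diet 0 members were higher and 1 (Ldhb) was lower, while 19.3% of all genes were called, 9.05% higher and 10.2% lower. For CR against the control diet, 1 member (Slc2a4) was higher and 1 (Pfkm) lower in mice labelled MKO, while 15.1% of all genes were called, 6.64% higher and 8.48% lower. In FLOX mice 0 members were higher and 1 (Pfkm) was lower, while 10% of all genes were called, 4.66% higher and 5.37% lower. Averaged over both diets, 0 members were higher and 1 (Ldhb) was lower in mice labelled MKO, while 33% of all genes were called, 14.9% higher and 18.1% lower. Averaged over both genotypes, 1 member (Ldhb) was higher and 1 (Pfkm) lower on CR, while 23.8% of all genes were called, 11.2% higher and 12.6% lower. With 0 to 2 of 9 called, the members' counts were near or under these shares, and the count itself is no result about glycolysis.

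Groups that did not overlap, every mouse of one lying on the same side of every mouse of the other, were rarer. Between genotypes this held for 7.72% of all genes on CR, 3.17% with MKO higher and 4.54% with MKO lower. On the control diet it held for 6.64%, 2.82% higher and 3.82% lower. For CR it held for 3.48% in mice labelled MKO, 1.45% higher and 2.03% lower, and for 5.4% in FLOX mice, 2.32% higher and 3.08% lower. The median log2 difference of the 9 members was 0.037 between genotypes on CR and 0.021 on the control diet, against -0.016 over all genes on each diet. For CR it was -0.0064 in mice labelled MKO, against 0.001 over all genes, and -0.017 in FLOX mice, against 0.0012 over all genes.

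Arrays of 1 group correlated at 0.984 to 0.996, no 2 held identical values, and the lowest and highest intensities of an array lay at 56.6 to 62.8 and 37243 to 38435. The summed intensity of 6 muscle fibre markers was 164061 to 168059 in CR mice labelled MKO and 165752 to 171193 in CR FLOX mice. It was 164208 to 167140 in control-diet mice labelled MKO and 165785 to 168122 in control-diet FLOX mice. None of these markers was at 0. On each diet 0 of the 6 were higher and 1 was lower in mice labelled MKO, while 9.05% of all genes were lower on CR and 10.2% on the control diet. Each of the 5 Ppargc1a probe sets read higher in MKO than in FLOX mice, 1.34- to 1.57-fold on CR and 1.53- to 1.76-fold on the control diet. The sources used here do not say where these probe sets lie with respect to the deletion, and a probe set outside it checks nothing. The mice are therefore called labelled MKO, and every genotype direction rests on that label.

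Slc2a4 encodes GLUT4, the insulin- and contraction-responsive glucose transporter of muscle and fat (chromosome 11, 69942286 to 69948216, GRCm38.p6). Its intensity had a lowest, median and highest value of 6926, 7182 and 7347 in CR mice labelled MKO and of 5944, 6503 and 7385 in control-diet mice labelled MKO. It was 6196, 6783 and 7014 in CR FLOX mice and 6407, 6721 and 7111 in control-diet FLOX mice. The CR mice labelled MKO lay in a narrow band near the top of all values, while 6 of the 7 control-diet mice labelled MKO lay below that band and mouse 3, at 7385, above it. CR was followed by a higher level in mice labelled MKO (log2 difference 0.15 ± 0.040 SE, adjusted p = 0.0107), and the difference in FLOX mice was -0.00083 (adjusted p = 0.994) with a 95% interval from -6.0% to 6.2%. The second probe set also passed in mice labelled MKO (0.16, adjusted p = 0.0224). The 2 diet effects differed by 0.15 ± 0.059 SE on the log2 scale, with an unadjusted p of 0.016 and an adjusted p of 0.999, so a diet effect particular to 1 genotype was not established.

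Averaged over both genotypes Slc2a4 was 0.075 ± 0.029 SE higher on CR (adjusted p = 0.0657). It passed with quantile normalization, the mean of the probe sets and array weights (adjusted p of 0.0179 to 0.0381) and without CR FLOX mouse 4, control-diet MKO mouse 3 or control-diet FLOX mouse 6 (adjusted p of 0.00916 to 0.0466). Between genotypes Slc2a4 did not pass. On CR the difference was 0.091 ± 0.041 SE (adjusted p = 0.137), with 6 of 7 mice labelled MKO above every FLOX mouse, and on the control diet it was -0.059 ± 0.041 SE (adjusted p = 0.343). With the mean of both probe sets in place of the brighter one, the difference on CR passed (0.11, adjusted p = 0.0348). Within groups the 2 probe sets did not follow each other closely (r = 0.26, permutation p = 0.221, Spearman rho = 0.45, permutation p = 0.0348, 26 mice, r = 0.51 without the 2 mice farthest from the median of the brighter set).

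Hk2, the hexokinase that muscle regulates with insulin and exercise, varied more among mice of 1 group than between groups. Its lowest, median and highest intensities were 6755, 7224 and 7526 in CR mice labelled MKO, 6546, 7013 and 7505 in CR FLOX mice, 6329, 7170 and 8515 in control-diet mice labelled MKO and 5803, 6940 and 7565 in control-diet FLOX mice. The 4 ranges overlap throughout. The 95% intervals of its differences spanned -6.2% to 11.3% for MKO against FLOX on CR and -2.2% to 16% on the control diet, so changes of that size are not excluded.

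Pfkm, the muscle subunit of phosphofructokinase, fell on CR. Its intensity was 20345, 21560 and 22407 (lowest, median and highest) in CR mice labelled MKO, against 22056, 23237 and 23609 in control-diet mice labelled MKO. It was 19527, 20634 and 21199 in CR FLOX mice, against 22374, 22563 and 23334 in control-diet FLOX mice. All 6 CR FLOX mice lay below every control-diet FLOX mouse, a pattern found for 3.08% of all genes, and 5 of 7 CR mice labelled MKO lay below every control-diet mouse of that genotype. The log2 difference was -0.15 ± 0.030 SE in FLOX mice (adjusted p = 0.00193), -0.10 ± 0.028 SE in mice labelled MKO (adjusted p = 0.0136) and -0.12 ± 0.020 SE averaged over both genotypes (adjusted p = 5.32e-05). The 2 diet effects differed by 0.046 ± 0.041 SE (adjusted p = 0.999), and no genotype comparison passed. With median centring Pfkm did pass between genotypes, 0.086 higher in mice labelled MKO on CR (adjusted p = 0.0489) and 0.063 higher averaged over both diets (adjusted p = 0.0231). With only the groups compared in the fit, the difference in mice labelled MKO had an adjusted p of 0.057.

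**Figure D2:**
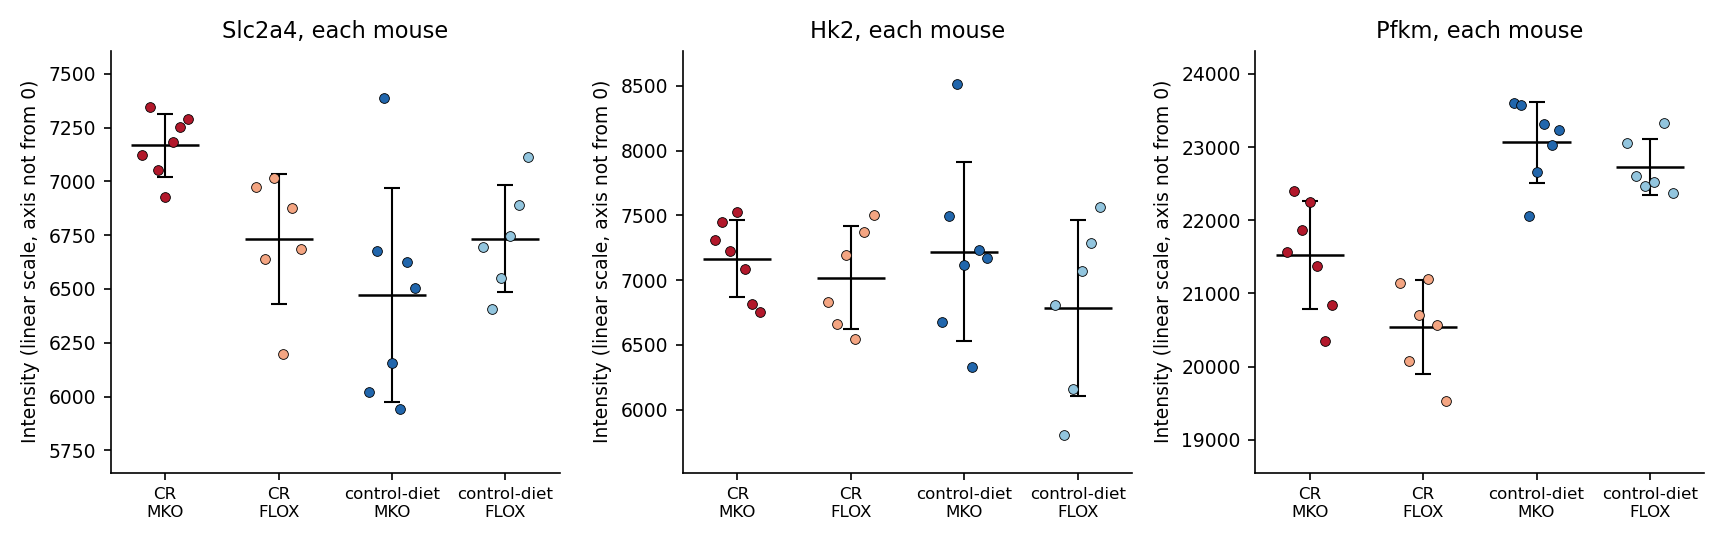
Intensity of Slc2a4, Hk2 and Pfkm in each mouse by group (linear scale, axes not starting at 0), with the group mean and SD as bars. The Pfkm values of the 6 CR FLOX mice all lie below the 6 control-diet FLOX mice.

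Markers of some other cells moved with the diet. Over all genes 8.48% were lower on CR in mice labelled MKO and 5.37% in FLOX mice. Of 3 adipocyte and 3 nerve and Schwann cell markers tested, 0 passed for CR in either genotype. Of 2 erythroid markers tested 0 were lower, and 1 was higher on CR in FLOX mice, where 4.66% of all genes were higher. Of 6 fibroblast markers 0 were higher and 5 were lower on CR in each genotype, and their summed intensity was 7515 to 12314 in CR mice labelled MKO, 8547 to 12190 in CR FLOX mice, 14233 to 19232 in control-diet mice labelled MKO and 13862 to 20331 in control-diet FLOX mice. Of 6 endothelial markers 5 were lower on CR in mice labelled MKO and 2 in FLOX mice, and their sum was 3913 to 4895 in CR mice labelled MKO, 4667 to 5012 in CR FLOX mice, 4827 to 5979 in control-diet mice labelled MKO and 4905 to 5831 in control-diet FLOX mice. Of 6 macrophage and leukocyte markers 1 was lower on CR in mice labelled MKO and 2 in FLOX mice. Their sum was 2974 to 3847 in CR mice labelled MKO, 2988 to 4489 in CR FLOX mice, 3476 to 5699 in control-diet mice labelled MKO and 4095 to 5406 in control-diet FLOX mice. None of these markers was at 0 on any array. Their part in the differences of Pfkm and Slc2a4 was not tested.

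Pfkfb3 encodes an inducible form of the bifunctional enzyme whose kinase activity makes fructose-2,6-bisphosphate. Its intensity was 2351, 3088 and 4868 (lowest, median and highest) in CR mice labelled MKO and 581, 2206 and 3362 in CR FLOX mice. It was 2304, 3354 and 4957 in control-diet mice labelled MKO and 1655, 2863 and 5548 in control-diet FLOX mice. CR FLOX mice 5 and 6, at 581 and 721, stood below every other mouse of the study, and the other 4 CR FLOX mice lay between 2121 and 3362. The mean was 2.00-fold higher in CR mice labelled MKO than in CR FLOX mice (log2 difference 1.00 ± 0.35 SE, adjusted p = 0.0498), with 3 of 7 above every FLOX mouse.

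That adjusted p lies at the threshold. It was above 0.05 when any 1 of 18 mice was left out: CR MKO mice 1, 2, 3, 5, 6 and 7, CR FLOX mice 2, 5 and 6, all 7 control-diet MKO mice, and control-diet FLOX mice 1 and 6. The difference was 0.70 (adjusted p = 0.148) without CR FLOX mouse 5 and 0.76 (adjusted p = 0.142) without CR FLOX mouse 6, the smallest differences of these 18 fits. Without any 1 of the other 16 the difference was 0.91 to 1.07, close to the 1.00 of all mice, with an adjusted p of 0.0501 to 0.0939. The call was also lost in 10 of 13 other settings, with differences of 0.82 to 1.00. The second Pfkfb3 probe set had a log2 difference of 0.78 ± 0.31 SE (adjusted p = 0.0879), and it placed CR FLOX mice 5 and 6 lowest as well, at 248 and 238, with the other 4 CR FLOX mice between 686 and 909. Within groups the 2 probe sets ran together (r = 0.95, Spearman rho = 0.96, each with permutation p = 1e-05, the smallest the permutations can give, r = 0.93 without the 2 mice farthest from the median of the brighter set). Pfkfb3 averaged over both diets was 0.63 ± 0.25 SE higher in mice labelled MKO (adjusted p = 0.0519), which passed in 7 of 26 fits with 1 mouse left out (adjusted p of 0.0232 to 0.0463), with the filter at the 50th percentile (adjusted p = 0.0466) and with median centring (adjusted p = 0.0461). On the control diet the genotype difference was 0.26 ± 0.35 SE (adjusted p = 0.646), and the differences for CR were -0.056 ± 0.34 SE in mice labelled MKO (adjusted p = 0.943) and -0.79 ± 0.37 SE in FLOX mice (adjusted p = 0.193).

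**Figure D3:**
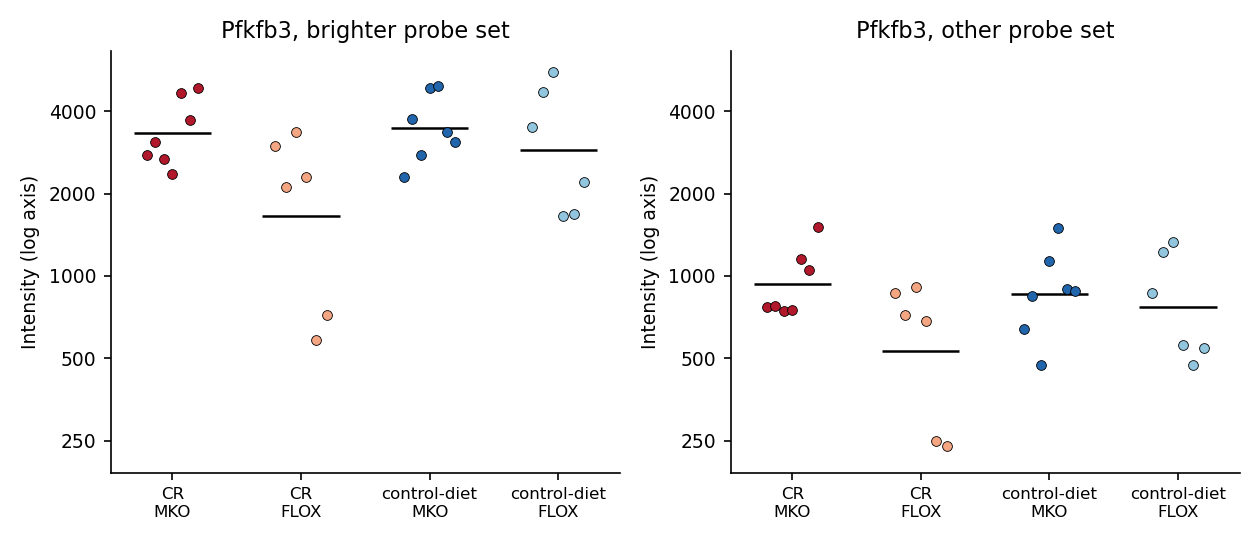
Intensity of Pfkfb3 in each mouse by group for its brighter and its other probe set (log axis, line at the mean of log2 values). CR FLOX mice 5 and 6 are the lowest points in both panels, at 581 and 721 on the left and 248 and 238 on the right.

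Aldoa, Pgam2 and Eno3, the muscle forms of aldolase, phosphoglycerate mutase and enolase, passed in no comparison. Aldoa had lowest, median and highest intensities of 29544, 30537 and 30861 in CR mice labelled MKO, 29057, 29805 and 29990 in CR FLOX mice, 29362, 30124 and 30502 in control-diet mice labelled MKO and 29661, 30005 and 30429 in control-diet FLOX mice. Pgam2 had 16713, 17862 and 19482 in CR mice labelled MKO, 16816, 18419 and 20848 in CR FLOX mice, 17983, 18721 and 19912 in control-diet mice labelled MKO and 17949, 19218 and 19638 in control-diet FLOX mice. Eno3 had 27345, 27957 and 28697 in CR mice labelled MKO, 26705, 27135 and 28237 in CR FLOX mice, 26840, 27698 and 28496 in control-diet mice labelled MKO and 25135, 27050 and 27350 in control-diet FLOX mice. The groups overlap for all 3 genes. The 95% intervals for MKO against FLOX were -0.6% to 5.9% (Aldoa), -7.9% to 3.8% (Pgam2) and -0.8% to 7.0% (Eno3) on CR. Eno3 came nearest to passing, 0.047 ± 0.019 SE higher in mice labelled MKO averaged over both diets (adjusted p = 0.0541). Leaving out CR MKO mouse 6, CR FLOX mouse 4, control-diet MKO mouse 4 or 7, or control-diet FLOX mouse 3 brought its adjusted p to between 0.0383 and 0.0476, and it also passed in 8 of 12 other settings. Pgam2 averaged over both genotypes was -0.058 ± 0.030 SE on CR (adjusted p = 0.17), and passed with quantile normalization (-0.078, adjusted p = 0.0407) and without CR FLOX mouse 4 (-0.076, adjusted p = 0.0398).

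The tested probe sets of Aldoa, Pgam2, Eno3, Pfkm and Ldha all lay at or above the 99.8th percentile of every array. The highest intensity of an array was 37243 to 38435, while Aldoa spanned 29057 to 30861 and Pgam2 16713 to 20848. At high intensities a change in transcript can give a smaller change in intensity, which was not tested here. The names of all 5 Aldoa probe sets carry the mark Affymetrix gives to sets whose probes can match other transcripts.

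Ldhb and Ldha, the subunits of lactate dehydrogenase, are given together. Their promoter windows run from 250 bases before to 50 bases after an annotated start (RefSeq, GRCm38.p6, read in the direction of the gene). The windows are given because Ldhb differed with genotype and no difference of Ldha passed. Capitals mark matches to any of the motifs searched on both strands: the ERR element TNAAGGTCA, the nuclear receptor half-site AGGTCA that lies within it, the MEF2 consensus, the hypoxia response core ACGTG, the GC box GGGCGG and the TATA box TATAAA.
Ldhb, chr6:142507908-142508207, minus strand: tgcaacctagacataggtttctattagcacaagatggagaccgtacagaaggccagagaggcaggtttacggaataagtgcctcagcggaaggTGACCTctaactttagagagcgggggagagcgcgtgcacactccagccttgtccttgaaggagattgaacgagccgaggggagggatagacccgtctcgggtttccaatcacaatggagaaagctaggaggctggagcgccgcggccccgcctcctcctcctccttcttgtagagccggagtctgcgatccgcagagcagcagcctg
Ldha, chr7:46845554-46845853, plus strand: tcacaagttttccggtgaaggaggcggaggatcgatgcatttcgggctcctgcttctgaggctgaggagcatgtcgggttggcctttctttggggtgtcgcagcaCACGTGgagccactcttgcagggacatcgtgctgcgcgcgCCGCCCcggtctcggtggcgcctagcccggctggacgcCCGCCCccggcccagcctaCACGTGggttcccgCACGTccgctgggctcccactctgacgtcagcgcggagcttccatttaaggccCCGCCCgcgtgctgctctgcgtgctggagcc

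The Ldhb window held 1 half-site, on the reverse strand 157 bases before the start, and no match to the other motifs. The half-site occurs in 16.3% of 32851 such windows and the full ERR element in 1.28%. The Ldha window held the hypoxia core in 3 places, which 19.6% of windows hold at least once, and 3 GC boxes, which 35.7% hold. A second annotated Ldha window held none of the 6 motifs. Windows were found for 9 of the 10 genes, and Slc2a4 had none. A match of letters is not evidence of binding.

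Ldhb intensity was 1974, 2307 and 3404 (lowest, median and highest) in CR mice labelled MKO, against 3749, 5112 and 5232 in CR FLOX mice. It was 1805, 2173 and 2356 in control-diet mice labelled MKO, against 3531, 3899 and 4652 in control-diet FLOX mice. On each diet all 7 mice labelled MKO lay below every FLOX mouse, a pattern found for 4.54% of all genes on CR and 3.82% on the control diet. Averaged over both diets Ldhb was 1.92-fold lower in mice labelled MKO (log2 difference -0.94 ± 0.069 SE, adjusted p = 4.79e-11). All 4 Ldhb probe sets gave the same direction, with log2 differences of -1.09 to -0.96 on CR and -0.93 to -0.87 on the control diet. Some of these sets, though not the tested one, carry the same mark as the Aldoa sets, for probes that can match other transcripts. Leaving out any 1 mouse kept the difference between -1.04 and -0.91 on CR and between -0.95 and -0.87 on the control diet.

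CR moved Ldhb the other way by less. It was 1.18-fold higher on CR averaged over both genotypes (log2 difference 0.23 ± 0.069 SE, adjusted p = 0.0141). Taken singly, the difference was 0.21 ± 0.094 SE in mice labelled MKO (adjusted p = 0.147, 3 of 7 above every control-diet mouse) and 0.26 ± 0.10 SE in FLOX mice (adjusted p = 0.116, 4 of 6 above every control-diet mouse), and neither passed. Without CR FLOX mouse 4 the difference in FLOX mice was 0.33 and passed (adjusted p = 0.0362), and without CR MKO mouse 6 that in mice labelled MKO was 0.13 (adjusted p = 0.359). One of the 4 probe sets passed in FLOX mice (0.40 ± 0.12 SE, adjusted p = 0.0279). The diet effects of the genotypes differed by -0.048 ± 0.14 SE (adjusted p = 0.999).

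No difference of Ldha passed. Its intensity was 22401, 22950 and 23461 in CR mice labelled MKO, 21064, 22651 and 24111 in CR FLOX mice, 22559, 22940 and 23572 in control-diet mice labelled MKO and 22230, 22741 and 23201 in control-diet FLOX mice. No group stood apart. The 95% interval for MKO against FLOX was -1.9% to 6.7% on CR and -2.6% to 6.0% on the control diet. For Ldhb it was -55.4% to -41.1% on CR and -53.9% to -39.1% on the control diet. Ldha lay at far higher intensities than Ldhb, where a change in transcript can give a smaller change in intensity, which was not tested.

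**Figure D4:**
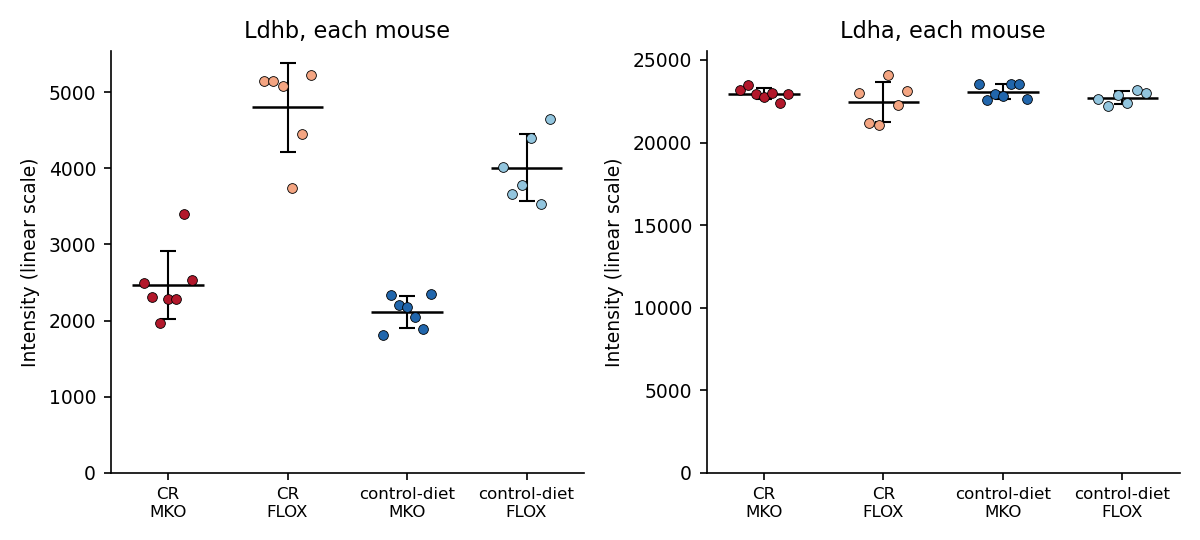
Intensity of Ldhb (left) and Ldha (right) in each mouse by group (linear scale), with the group mean and SD as bars. The 7 Ldhb values of each MKO group lie below all 6 values of the FLOX group on the same diet, and the Ldha groups overlap.

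Fibre type markers were read beside Ldhb, since oxidative fibres are rich in the B subunit. Of 9 fast fibre markers 0 passed between genotypes on either diet, while 17.3% of all genes passed on CR and 19.3% on the control diet. The summed intensity of 8 slow fibre markers was 10258 to 25611 (median 12366) in CR mice labelled MKO and 6641 to 10566 (median 9916) in CR FLOX mice. On the control diet it was 8016 to 13880 (median 11312) in mice labelled MKO and 4859 to 12469 (median 6839) in FLOX mice. Their median log2 difference was 0.43 on each diet, 1 of 8 was higher on each diet, 1 was lower on the control diet, and none was at 0. CR MKO mouse 6 had the highest slow fibre sum, 25611, and the highest Ldhb of its group. Control-diet FLOX mouse 1, at 12469, stood above every other FLOX mouse on either diet. Besides CR MKO mouse 6, 4 mice labelled MKO had higher sums, of 12712 to 13880. Without the 2 mice that stood apart within their groups (CR MKO mouse 6 and control-diet FLOX mouse 1), the Ldhb difference between genotypes was -1.04 on CR (adjusted p = 4.51e-09) and -0.91 on the control diet (adjusted p = 9.17e-08). That setting was chosen after the data were seen, and the part of other fibre types in the smaller CR difference was not tested.

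Members also varied together from mouse to mouse. After the group means were removed, 3 of 36 pairs of members passed on both Pearson and Spearman measures over the 26 mice (100000 permutations within groups, adjusted over the 36 pairs). Slc2a4 and Hk2 rose and fell together (r = 0.75, adjusted p = 0.00198, rho = 0.62, adjusted p = 0.029, r = 0.60 without the 2 farthest mice). Control-diet MKO mouse 3 was the highest of all mice for both. Eno3 and Ldha did so too (r = 0.61, adjusted p = 0.00198, rho = 0.61, adjusted p = 0.0243, r = 0.56 without the 2 farthest mice). Hk2 and Pfkfb3 ran in opposite directions (r = -0.59, adjusted p = 0.0158, rho = -0.69, adjusted p = 0.0187, r = -0.60 without the 2 farthest mice). In each pair the 2 farthest mice were those farthest from the median of the gene named first. CR FLOX mice 5 and 6, the lowest for Pfkfb3, therefore stayed in for the last pair, and their weight in it was not tested. Values of a pair come from the same array, so differences in array quality or in the muscle dissected are shared by both.

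Over the same 26 mice and with group means removed, the genes most like each called member were, as a description, Homer2 (r = 0.88), St3gal5 (r = 0.84) and Hspe1 (r = 0.83) for Slc2a4. They were Ankrd23 (r = 0.75), Ubash3a (r = 0.74) and Pafah1b3 (r = 0.71) for Pfkm, Fzd7 (r = 0.89), Cep41 (r = 0.73) and Rarres2 (r = 0.72) for Pfkfb3, and Dgat2 (r = 0.76), Egln3 (r = 0.76) and Adcy2 (r = 0.73) for Ldhb. These are the highest correlations among the properly named genes of the 14854 tested, since predicted genes were passed over.

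The other enzymes of the pathway placed the members in context. Of 28 listed, 21 were tested, 2 lay under the filter on dim probe sets and 5, among them Gapdh and Gpi1, had no probe set naming them alone. Between genotypes on CR 1 was higher and 5 were lower in mice labelled MKO, and on the control diet 0 were higher and 4 lower. Over all genes 8.23% were higher and 9.05% lower on CR, and 9.05% and 10.2% on the control diet. Averaged over both diets the shares were 14.9% and 18.1%. Ldhd, the mitochondrial D-lactate dehydrogenase, was 1.45-fold lower on CR (adjusted p = 0.012) and 1.87-fold lower on the control diet (adjusted p = 7.92e-05), where all 7 mice labelled MKO lay below every FLOX mouse. Hk1, the hexokinase found in most tissues, was 1.1-fold lower on both diets (adjusted p = 0.00514 on CR and 0.00407 on the control diet). Among CR mice Pfkfb2 was 1.16-fold lower in those labelled MKO (adjusted p = 0.0046). Among control-diet mice Pgam1 was 1.17-fold (adjusted p = 0.00467) and Aldoc 1.15-fold lower in those labelled MKO (adjusted p = 0.0169). Aldoc did not pass once control-diet FLOX mouse 5 was left out (adjusted p = 0.0623). With the mean of its probe sets the Ldhd difference on the control diet was -0.60 on the log2 scale, against -0.90 with the brightest (adjusted p = 2.24e-05). Averaged over both diets, Ldhd, Hk1 and Pgam1 were lower by 1.64-, 1.1- and 1.15-fold and Fbp2 was 1.40-fold higher, with adjusted p up to 0.000274, among 1 higher and 6 lower.

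Fbp2, the muscle fructose-bisphosphatase, which runs against phosphofructokinase, was higher on CR in mice labelled MKO. Its intensity was 2073, 2320 and 2946 (lowest, median and highest) in CR mice labelled MKO, against 1101, 1414 and 1815 in CR FLOX mice. It was 1030, 1258 and 1657 in control-diet mice labelled MKO and 811, 1172 and 1273 in control-diet FLOX mice. All 7 CR mice labelled MKO lay above every mouse of the other 3 groups, a pattern whose share over all genes was not counted. Against CR FLOX mice alone 3.17% of all genes showed it, and against control-diet mice labelled MKO alone 1.45%. The fold was 1.67 against CR FLOX mice (adjusted p = 9.92e-05) and 1.84 against control-diet mice labelled MKO (adjusted p = 1.63e-05). In FLOX mice CR gave 1.29-fold (adjusted p = 0.0744), while the 2 diet effects differed by 0.52 ± 0.18 SE on the log2 scale (adjusted p = 0.999).

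For CR, 2 of the 21 enzymes were higher and 2 lower in each genotype. Of all genes 6.64% were higher and 8.48% lower in mice labelled MKO, and 4.66% and 5.37% in FLOX mice. Averaged over both genotypes these shares were 11.2% and 12.6%. Pgk1, phosphoglycerate kinase, was higher by 1.1-fold in mice labelled MKO (adjusted p = 0.0154) and by 1.11-fold in FLOX mice (adjusted p = 0.0187). With quantile normalization neither passed (adjusted p = 0.133 and 0.194), and leaving out control-diet FLOX mouse 2 also ended the call in FLOX mice (adjusted p = 0.051). In mice labelled MKO Gpd2 was 1.14-fold lower (adjusted p = 0.0278) and Hk1 1.07-fold lower (adjusted p = 0.0461). The Gpd2 call was lost without CR MKO mouse 1 or control-diet MKO mouse 4, 6 or 7, each alone (adjusted p of 0.0525 to 0.0651), and the Hk1 call was lost in 19 of 26 fits with 1 mouse left out (adjusted p up to 0.097). In FLOX mice Pfkfb4 was 1.19-fold higher (adjusted p = 0.0254), Ldhd 1.44-fold lower (adjusted p = 0.0275) and Pkm, pyruvate kinase, 1.08-fold lower (adjusted p = 0.044). Leaving out 1 mouse ended the Pfkfb4 call in 6 of 26 fits (CR FLOX mice 2, 4 and 6, control-diet FLOX mice 1, 2 and 3, adjusted p up to 0.0655). It ended the Ldhd call in 4 (CR FLOX mice 5 and 6, control-diet FLOX mice 2 and 4, adjusted p up to 0.0856) and the Pkm call in 10 (all mice of both groups but mouse 4, adjusted p up to 0.093). With the mean of its probe sets the Ldhd difference was -0.33, against -0.52 with the brightest. Gpd2 did not pass with quantile normalization (adjusted p = 0.055). With only the groups compared, Pgk1 and Ldhd in FLOX mice did not pass (adjusted p = 0.0602 and 0.0572). With the number in the titles as a block, Pkm did not (adjusted p = 0.0545). The Hk1 call was lost in each of these settings (adjusted p of 0.0507 to 0.0919). Without the 2 mice apart in slow fibre sum, Pfkfb4, Pkm and Hk1 were not called (adjusted p of 0.0574 to 0.0777). Averaged over both genotypes Fbp2, Pgk1 and Pfkfb4 were higher by 1.54-, 1.11- and 1.16-fold and Hk1 was 1.07-fold lower, with adjusted p up to 0.00347, among 3 higher and 4 lower.

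**Figure D5:**
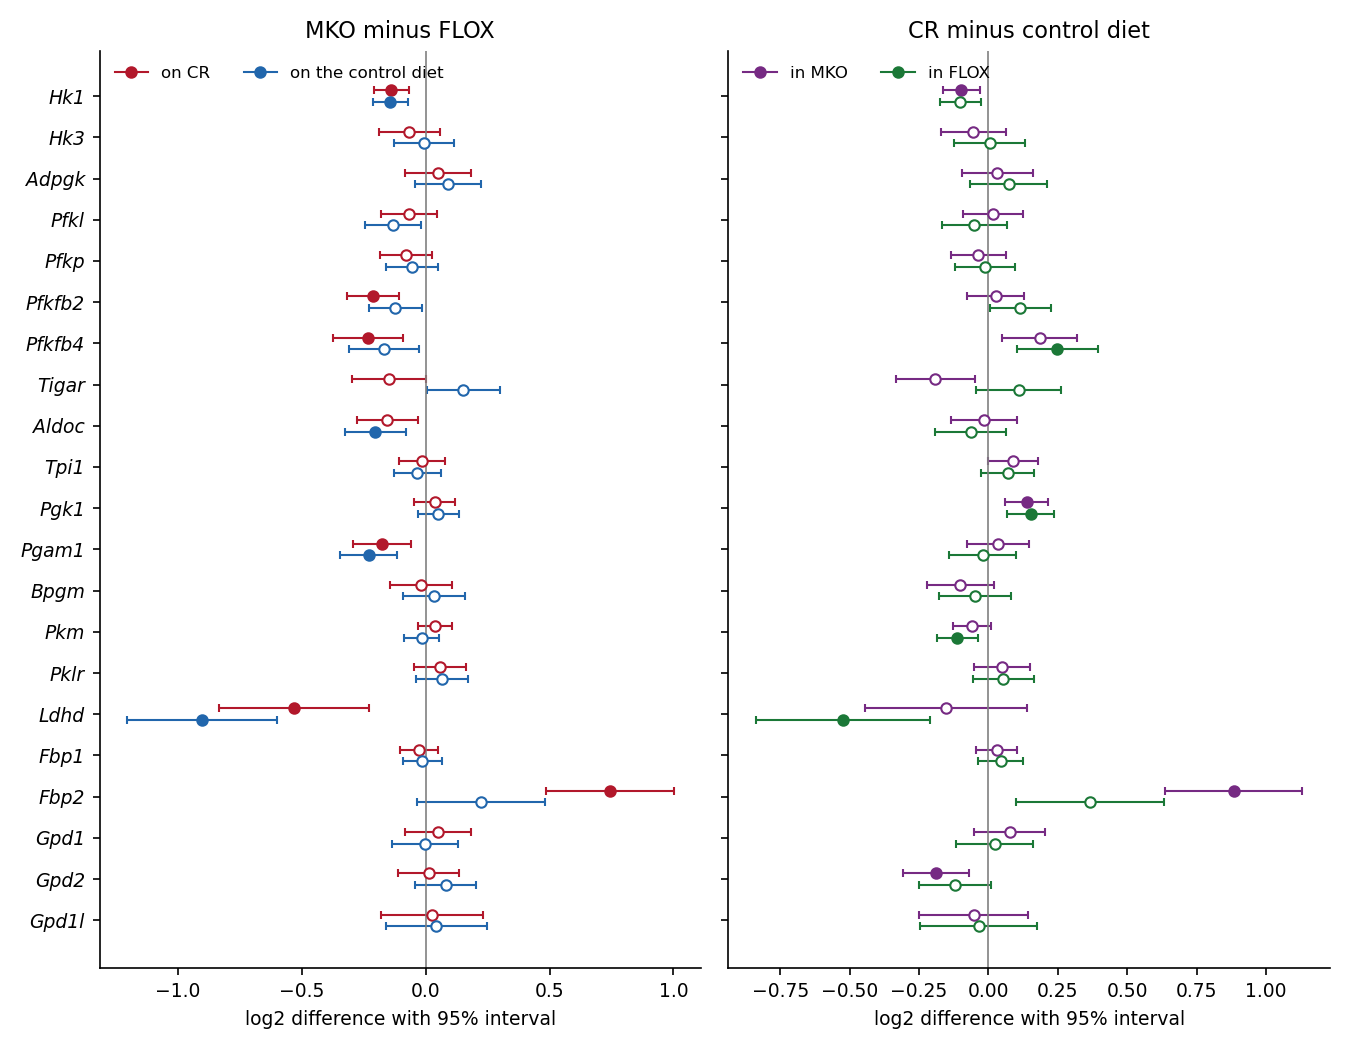
Log2 difference with its 95% interval for the 21 tested enzymes beside the members (left, MKO minus FLOX; right, CR minus control diet). Filled points have an adjusted p under 0.05, and Fbp2 on CR and Ldhd lie farthest from 0.

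Among the other glucose transporters and the proteins that move GLUT4 to the surface, 24 of 25 listed genes were tested. Between genotypes 5 were higher and 2 lower on CR, and 5 higher and 4 lower on the control diet. All genes gave 8.23% higher and 9.05% lower on CR, and 9.05% and 10.2% on the control diet. They gave 14.9% and 18.1% averaged over both diets. Slc2a12, the transporter GLUT12, was lower in mice labelled MKO by 1.2-fold on CR (adjusted p = 4.18e-05) and 1.12-fold on the control diet (adjusted p = 0.00727). Slc2a3, the transporter GLUT3, was 1.53-fold higher in mice labelled MKO than in FLOX mice on CR (adjusted p = 0.000601). Rab14, a GTPase of vesicle traffic, was higher by 1.18-fold on CR (adjusted p = 4.23e-05) and 1.16-fold on the control diet (adjusted p = 0.00028), with all 7 mice labelled MKO above every FLOX mouse on each. With the mean of the probe sets, Rab14 on CR was 0.15 higher on the log2 scale, against 0.24 with the brightest, and Slc2a3 0.41, against 0.62. Among CR mice Rac1, a GTPase that GLUT4 transport needs, was 1.12-fold higher in those labelled MKO (adjusted p = 0.000202). On the control diet Snap23 and Stxbp3, of the fusion machinery, were 1.21-fold (adjusted p = 0.00098) and 1.22-fold higher (adjusted p = 0.0067), and Stxbp3 did not pass with the mean of its probe sets (adjusted p = 0.0985). Averaged over both diets Rab14 and Rac1 were higher and Slc2a12 and Slc2a8 lower, Slc2a8 by 1.13-fold (adjusted p = 2.83e-05), among 6 higher and 4 lower.

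On CR 2 of these genes were higher and 5 lower in mice labelled MKO, and 0 higher and 1 lower in FLOX mice. The shares of all genes were 6.64% higher and 8.48% lower in mice labelled MKO, and 4.66% and 5.37% in FLOX mice. They were 11.2% and 12.6% averaged over both genotypes. Rac1 was lower in both genotypes, by 1.09-fold in mice labelled MKO (adjusted p = 0.00591) and 1.14-fold in FLOX mice (adjusted p = 0.000215). The Rab regulators that insulin signalling inactivates moved apart in mice labelled MKO, with Tbc1d4 1.56-fold higher (adjusted p = 0.00712) and Tbc1d1 1.29-fold lower (adjusted p = 0.0059). With the mean of the probe sets these log2 differences were 0.35 for Tbc1d4, against 0.64 with the brightest, and -0.23 for Tbc1d1, against -0.37. Rab10 was 1.14-fold lower there (adjusted p = 0.0152). Averaged over both genotypes Tbc1d4 was 1.34-fold higher and Rac1, Exoc7 and Tbc1d1 were lower by 1.11-, 1.28- and 1.21-fold, with adjusted p up to 0.00993, among 2 higher and 5 lower.

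Of 19 listed transcriptional regulators of Slc2a4 and the glycolysis genes 18 were tested. Between genotypes 3 were higher and 2 lower on CR, and 4 higher and 1 lower on the control diet. Among all genes 8.23% were higher and 9.05% lower on CR, and 9.05% and 10.2% on the control diet. The averages over both diets had 14.9% and 18.1%. Esrra, the receptor ERRa, had 1183, 1364 and 1405 (lowest, median and highest) in CR mice labelled MKO, against 1622, 1926 and 1964 in CR FLOX mice, and 1167, 1335 and 1368 in control-diet mice labelled MKO, against 1729, 1884 and 2018 in control-diet FLOX mice. It was 1.40-fold lower on CR (adjusted p = 1.11e-07) and 1.44-fold lower on the control diet (adjusted p = 3.53e-08), with no overlap on either. With the mean of its probe sets the log2 difference was -0.30 on CR, against -0.48 with the brightest, and -0.21 on the control diet, against -0.53. Among CR mice, Mef2a was 1.14-fold higher in those labelled MKO (adjusted p = 0.00756). Mlxip, the glucose-sensing factor MondoA, was 1.21-fold higher in them (adjusted p = 0.0108), and Epas1 was 1.17-fold lower (adjusted p = 0.00865). The Mef2a call was lost with the mean of its probe sets (adjusted p = 0.141). On the control diet Six4 and Eya1, of the programme for fast glycolytic fibres, were 1.18-fold higher each (adjusted p = 0.0015 and 0.0102) and Mef2c 1.15-fold higher (adjusted p = 0.00265). With each probe set of Six4 taken on its own, the median log2 difference on the control diet was 0.16, against 0.24 with the brightest, and Six4 was not called. Averaged over both diets Esrra was 1.42-fold lower and Mef2c, Mef2a and Six4 were higher by 1.13-, 1.12- and 1.12-fold, with adjusted p up to 0.000721, among 8 higher and 2 lower.

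For CR, 1 of these regulators was higher and 5 were lower in mice labelled MKO, and 0 were higher and 3 lower in FLOX mice. Beside them, 6.64% of all genes were higher and 8.48% lower in mice labelled MKO, and 4.66% and 5.37% in FLOX mice. Averaged over both genotypes 11.2% of all genes were higher and 12.6% lower. Mef2c was lower by 1.26-fold in mice labelled MKO (adjusted p = 8.35e-06) and 1.23-fold in FLOX mice (adjusted p = 0.000173), and in each genotype every CR mouse lay below every control-diet mouse. Eya1 was lower by 1.38-fold in mice labelled MKO (adjusted p = 2.06e-05) and by 1.22-fold in FLOX mice (adjusted p = 0.00821). In mice labelled MKO Six4 and Hdac4 were 1.15-fold (adjusted p = 0.006) and 1.2-fold lower (adjusted p = 0.0101), and in FLOX mice Mlxip was 1.31-fold lower (adjusted p = 0.00175). The Six4 call was lost with the mean of its probe sets (adjusted p = 0.0704). Averaged over both genotypes Mef2c, Eya1 and Mlxip were lower by 1.24-, 1.29- and 1.24-fold, with adjusted p up to 8.49e-05, and Mef2d was 1.1-fold higher with its brightest probe set (adjusted p = 0.00235) but not with the mean of its probe sets (log2 difference -0.026, adjusted p = 0.473), among 1 higher and 7 lower.

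For the difference between the diet effects, 0 of the 14854 genes passed (0% called), 720 had an unadjusted p under 0.05, and the smallest adjusted p was 0.389. None of the 9 members or of the 3 lists passed it, so no diet effect above is shown to depend on genotype.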

How the data were processed

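The authors deposited 1 intensity per probe set and array for 45101 probe sets, on a linear scale. The sources used here do not say how the background was corrected or the arrays scaled. No detection calls or scan dates were used, so a background limit and a scan batch could not be tested, and the number of arrays limits the precision.

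Values were tested as log2(intensity + 16) in R 4.3.3, a scale that understates differences of dim genes. Of the probe sets, 34945 named exactly 1 gene, 932 several and 9160 none, and 64 were controls. Symbols were updated through gene identifiers. Per gene, the probe set of highest mean at or above the 30th percentile (log2 value 7.47) was tested, which left 14854 genes. One mean per group over all 26 arrays was fitted with limma 3.58.1, with Benjamini-Hochberg adjustment over all genes. The comparisons read from this fit were the genotypes on each diet, the diets in each genotype, both averages, and the difference between the diet effects. The script was tested on simulated data. Nothing in the labels says that the numbers in the titles pair mice of different groups, so the numbers were not taken as pairs. After group means were removed, the correlation of same-numbered arrays had a median of -0.0994 to 0.223 over the numbers. Every pair was positive for numbers 1 and 3 (lowest r = 0.0649 and 0.029), while numbers 2, 5 and 7 had negative medians. Arrays of unlike number and group had a median of -0.0121. Promoter windows are RefSeq's.

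The members, the gene lists, the markers and the rule for naming genes were chosen with earlier results of these data known. The rule names all members and Ppargc1a, the 4 called genes of smallest p per list and comparison, and the 3 genes most correlated with each called member. Predicted genes are not named. Alternatives changed the pseudocount, the filter, the normalization, how probe sets were chosen, the prior variance, array weights, the arrays fitted and each mouse in turn. Each limma p sets a difference of means against the spread between mice within groups, pooled over all groups and moderated across genes. The p-values of correlations come from permutations within groups.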

Additional observations from a re-analysis of the deposited data

Results flagged for a closer look

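In 36 sets of values (9 members in 4 groups), 2 held a mouse that stood apart from the rest of its group by Dixon's test at the 95% level, which chance alone does in about 1 of 20 sets. Aldoa was lowest in CR MKO mouse 1, at an intensity of 29544, with the nearest other mouse at 30372. Ldhb was highest in CR MKO mouse 6, at 3404, with the nearest other mouse at 2537, and that mouse also had the highest sum of slow fibre markers, 25611.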

How the results depend on the processing

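The genotype differences of Ldhb, the differences of Pfkm for CR in FLOX mice and averaged over both genotypes, and that of Slc2a4 for CR in mice labelled MKO kept their direction and their call in every alternative tried. The number of members called between genotypes on CR was 2, and 1 with a pseudocount of 64, no filter, quantile normalization, each probe set on its own, the trended prior, array weights, the replicate block, only the groups compared, or both arrays that stood apart in slow fibre sum left out. It was 3 with median centring, where Pfkm was also called, and with the mean of the probe sets it was 2 with Slc2a4 in place of Pfkfb3. With the replicate block, that is the number in the titles as a block, Pfkfb3 was the call lost (0.97, adjusted p = 0.0811). By mean correlation with the arrays of each number in other groups, 8 of 26 arrays were closest to their own number. How many would be so by chance was not worked out. Averaged over both diets the count was 1, and 2 with a pseudocount of 64, quantile normalization, the mean of the probe sets, the trended prior, array weights or those 2 arrays left out, 3 with the filter at the 50th percentile and 4 with median centring. For CR it was 1 in mice labelled MKO with only the groups compared, and 4 averaged over both genotypes with quantile normalization. Slc2a4 was also called for CR averaged over both genotypes with the mean of the probe sets (adjusted p = 0.0253) and with array weights (adjusted p = 0.0179). With 1 mouse left out, the members called ranged from 1 to 2 between genotypes on CR, 1 to 3 averaged over both diets, 1 to 2 for CR in FLOX mice and 2 to 4 for CR averaged over both genotypes. With each probe set on its own, probe sets called numbered 4380 between genotypes on CR, 4682 on the control diet, 3832 for CR in mice labelled MKO, 2539 in FLOX mice, 8287 and 6244 for the averages over diets and genotypes. Mef2d for CR averaged over both genotypes turned to -0.026 with the mean of the probe sets and -0.083 as the median of its probe sets. The cause was not tested in any of these. No scaling moved the median of all genes past 0.1. The high intensities of Aldoa, Eno3, Ldha, Pfkm and Pgam2 may limit what their small differences can show, which was not tested.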
